A study of Mus musculus with 20 samples.

Results

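*Trp53*, which encodes p53, and its target genes *Cdkn1a*, *Mdm2* and *Ccng1* were followed through all 20 messenger RNA libraries of mouse nephron progenitor cells (NPCs) that had been given Cas9 guides against a control site, 1 gene or 4 genes. These 4 genes of 31130 in the count table were chosen by name, as the p53 gene, its best known arrest gene, its own inhibitor and a feedback cyclin. Their Ensembl identifiers are ENSMUSG00000059552 (*Trp53*), ENSMUSG00000023067 (*Cdkn1a*), ENSMUSG00000020184 (*Mdm2*) and ENSMUSG00000020326 (*Ccng1*). On GRCm38.p6 the genes lie at chr11:69580348-69591873, chr17:29090979-29100722, chr10:117688875-117710758 and chr11:40748552-40755309, in that order, and each value below is a gene total over its exons. All 4 were among the 16691 genes that had enough reads to be tested. The question put to them was whether their transcripts differed between cells given guides against a control site, 1 gene and 4 genes.

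Cas9 makes double-strand breaks in DNA. Such breaks activate the kinases ATM and ATR, which relieve p53 of its inhibitor MDM2, so that p53 protein accumulates and binds its response elements. p53 is regulated mostly at the level of the protein, and its transcript need not move when the pathway is active. The targets are therefore the usual transcript readout. *Cdkn1a* encodes p21, a cyclin-dependent kinase inhibitor that halts the cell cycle. *Mdm2* encodes the ubiquitin ligase that marks p53 for degradation and is itself induced by p53. *Ccng1* encodes cyclin G1, which takes part in the negative feedback on p53 through MDM2. In the kidney, NPCs are the *Six2*-expressing cells that renew themselves in the cap mesenchyme or enter nephron formation under Wnt signals.

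The NPCs came from E16.5 kidneys of embryos that carried a Rosa26 Cas9-EGFP allele driven by the constitutive CAG promoter, crossed to SWR/J, so every library shares that allele, the transfection and the sort. Cells were lipofected with sgRNAs and mCherry mRNA, kept for 48 h and exposed for a further 24 h to CHIR at 1.25 µM (low) or 5 µM (high), an inhibitor of GSK3β that stabilises β-catenin, and mCherry+ cells were sorted. The control (CTRL) received a guide against GFP, whose target is the eGFP of the Cas9 allele, and whether it was cut there was not measured. No library without a guide was used here. β-catenin KO and α-catenin KO target 1 gene each (*Ctnnb1* and *Ctnna1*), and QCKO targets the 4 cadherin genes *Cdh2*, *Cdh3*, *Cdh4* and *Cdh11*. At either dose of CHIR, CTRL had 3 libraries, QCKO 2 (replicates 2 and 3), β-catenin KO 3 and α-catenin KO 2 (replicates 1 and 3). A replicate number stands for a date in the label that groups share. The total amount of sgRNA per well was the same for all knockouts in the study's methods, so each of the 4 guides of QCKO was given at a lower amount. mCherry marks cells that took up RNA, not cells in which a cut was made, and the number of breaks per cell was not measured.

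The libraries held 18124772 to 28472412 recovered reads (median 21449823). CTRL high CHIR replicate 2 stood apart in its normalized total, at 28329411 against 20081901 to 23674964 in the other 19, and values without it are given beside the main differences from CTRL that it moves. Among the targeted genes, *Ctnna1* was at 3564 to 3790 normalized counts in α-catenin KO against 5817 to 10082 in CTRL, and *Cdh11* in QCKO was below every CTRL library in both conditions. *Cdh2*, *Cdh3* and *Cdh4* in QCKO overlapped CTRL in both conditions. A transcript can persist after a frameshift, so these levels are not a measure of cutting. The libraries labelled β-catenin KO went against one another. *Axin2*, a feedback target of Wnt signalling, was at 13.97 (low CHIR) and 18.5 (high CHIR) in replicate 1, but at 559.7 and 383.6 (low) and 742.6 and 686.9 (high) in replicates 2 and 3, where CTRL had 39.3 to 71.5 in low and 357.2 to 434.7 in high CHIR. *Lef1* was divided in the same way, at 62.3 and 93.6 in replicate 1 and 532.5 to 1020.0 in the others. *Ctnnb1* itself was not analysed here. The differences of the 4 genes between β-catenin KO and CTRL are therefore also given for replicate 1 and for replicates 2 and 3 apart. Replicate 1 is 1 library per condition, whose spread is taken from the other groups, so its p-values rest on that assumption. Of 8 markers of nephron progenitors 7 had an identifier, and their summed counts were 11204 to 20855 in low CHIR over all groups. In high CHIR they were 2187 to 3156 in CTRL, QCKO and α-catenin KO and 5527 to 10484 in β-catenin KO, below the low CHIR sums in every group. Among these markers *Pax2* went the other way, with means in CTRL of 281 in low and 1288 in high CHIR. Since these are bulk samples, fewer cells of a type and less RNA per cell cannot be told apart.

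The sequences upstream of the target genes are given because p53 acts through them. The p53 consensus element, a pair of half-sites without a spacer that reads the same on both strands (20 bases), was searched in the 250 bases before each RefSeq transcript start on GRCm38.p6. The best matches are in capitals in the first 2 sequences, each read 5′ to 3′ along its gene. In *Cdkn1a* the element had 1 mismatch, lay at chr17:29090928-29090947 and ended 31 bases before the upstream annotated start, at chr17:29090979. In *Ccng1* it also had 1 mismatch, lay at chr11:40755462-40755481 and ended 175 bases before the start.

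Cdkn1a (chr17:29090729-29090978, + strand): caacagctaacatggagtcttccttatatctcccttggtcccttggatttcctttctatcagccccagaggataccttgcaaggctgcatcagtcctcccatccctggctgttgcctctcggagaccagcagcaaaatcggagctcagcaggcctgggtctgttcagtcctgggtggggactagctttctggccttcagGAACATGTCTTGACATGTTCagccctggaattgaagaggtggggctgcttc
Ccng1 (chr11:40755287-40755536, - strand): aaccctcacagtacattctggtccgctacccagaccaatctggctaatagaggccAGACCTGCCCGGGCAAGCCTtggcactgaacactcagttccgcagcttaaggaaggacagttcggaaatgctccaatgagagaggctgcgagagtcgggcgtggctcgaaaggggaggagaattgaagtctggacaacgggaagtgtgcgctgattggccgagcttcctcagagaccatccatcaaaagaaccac

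Of 32851 promoters of that length, 25 (0.0761%) held a match with at most 1 mismatch, so *Ccng1* and the upstream start of *Cdkn1a* shared a feature that few promoters had. The best matches of *Trp53* (3 mismatches, a level that 5.32% of promoters reached) and of *Mdm2* (5 mismatches, reached by 71.1%) were no closer than those of many other genes. They are printed next in lower case with the mismatched bases in capitals. The known p53 elements of *Mdm2* lie in its first intron, outside this window. A second annotated start of *Cdkn1a*, downstream at chr17:29093769, had no better match than 5 mismatches in its own window. Which start the cells used was not examined. Of 34 other p53 targets, 25 had a promoter in the table, and none of them had a match with at most 2 mismatches while 7 had one with at most 3. A match to the letters is a description of the sequence and not evidence of binding.

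Trp53 best match (chr11:69580284-69580303, + strand): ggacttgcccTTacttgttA
Mdm2 best match (chr10:117710925-117710944, - strand): gaacttgcctagCGaCCAtt

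The guides define what was targeted. They are shown with the 12 bases next to the PAM in capitals, in the letters of the guide list (RNA or DNA). For *Ctnnb1* the list has 4 names but 3 different sequences, since 1 sequence stands under both an exon 3 and an exon 6 name, and it does not say which of them each library received. The guides for *Ctnna1*, *Cdh2* and GFP are not shown.

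Ctnnb1 sgRNA1-exon2: atgagcagCGTCAAACTGCG
Ctnnb1 sgRNA3-exon3: agccaagcGCTGGACATTAG
Ctnnb1 sgRNA5-exon3: gagattatGCAGTGTCGTGA
Cdh3: ccgaugaaGCCCGCUCGGUA
Cdh4: ccauccccAGGCCCACCGUG
Cdh11: caccagcaCAGGGUCAGGCC

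The 4 genes did not move as one. *Cdkn1a*, *Mdm2* and *Ccng1* were higher in every QCKO library than in every CTRL library of the same CHIR condition, by 1.42 to 2.37 times on average. Of all genes 9.48% were so in low CHIR, 13.3% in high CHIR and 2.9% in both. QCKO has no library of replicate 1, which CTRL has. With the date as a block the log2 differences of *Cdkn1a* were 0.85 in low and 0.87 in high CHIR, in place of 1.22 and 1.24. None of these differences passed limma's test over all genes, and DESeq2 called *Ccng1* in the mean of both conditions (0.81, adjusted p = 0.0125). In β-catenin KO, *Cdkn1a* rose 3.35-fold and *Ccng1* 2.60-fold over CTRL in high CHIR, and both passed. For *Cdkn1a* the size of this rise rested on replicates 2 and 3 (log2 fold change 2.45 alone, against 0.33 for replicate 1 alone). Replicate 1 was also above the CTRL library of its date, by 0.57. The limma adjusted p of 0.0499 for *Cdkn1a* was not under 0.05 once any of 15 of the 20 libraries was left out. With the date added to the limma fit as a block it was 0.00274. In α-catenin KO no member passed. *Trp53* itself was 0.78 to 0.80 times CTRL in β-catenin KO and between 0.92 and 1.07 times CTRL in the other knockouts. Values are normalized counts, that is read counts divided by a size factor per library. Differences are log2 fold changes on log2(normalized count + 1) from limma with their standard error (SE), and a gene is said to be called, to rise or to fall at a Benjamini-Hochberg adjusted p under 0.05 over all 16691 genes and an absolute log2 fold change over 0.5. All knockouts were compared with the same CTRL libraries, so their differences from CTRL are not independent of each other.

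**Figure D1:**
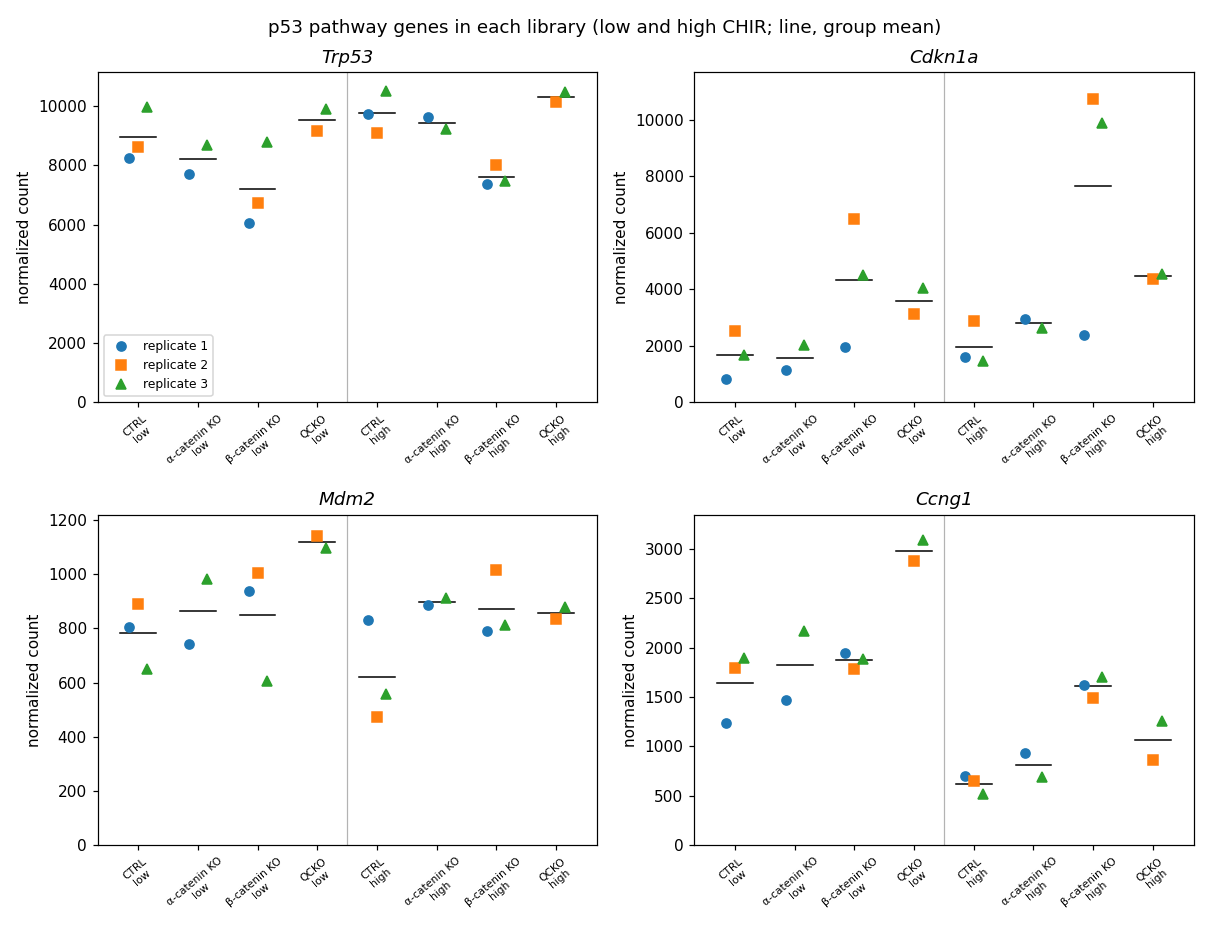
Normalized counts (linear axes from 0) of *Trp53*, *Cdkn1a*, *Mdm2* and *Ccng1* in the 20 libraries, by guide group, with low CHIR left and high CHIR right of the grey line; each point is a library, its shape and colour the replicate, and each short line the group mean. *Cdkn1a* ranges from 826 to 10747 and, within each CHIR condition, is highest in replicates 2 and 3 of β-catenin KO, while *Trp53* stays between 6039.7 and 10497.

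*Trp53* stayed between 6039.7 and 10497 normalized counts in all 20 libraries. In CTRL it was at 8239.7, 8612 and 9975 (replicates 1, 2 and 3) in low CHIR and at 9725, 9087 and 10497 in high CHIR. The β-catenin KO libraries were at 6039.7, 6739.9 and 8794 in low CHIR and at 7363, 7999 and 7479 in high CHIR. In low CHIR the third of these lay within the CTRL range, and in high CHIR all 3 lay below every CTRL library. The α-catenin KO libraries had 7713 and 8699 in low and 9629.9 and 9228 in high CHIR, and the QCKO libraries had 9166 and 9890.0 in low and 10138 and 10475 in high CHIR. QCKO and CTRL overlapped in both conditions. By group mean the order was QCKO high CHIR (10306.5 ± 238), CTRL high (9770.0 ± 706), QCKO low (9528 ± 512), α-catenin KO high (9429 ± 284), CTRL low (8942 ± 914), α-catenin KO low (8206 ± 697), β-catenin KO high (7613 ± 339) and β-catenin KO low (7191 ± 1432; SD, n = 3 for CTRL and β-catenin KO and 2 for the others). Each neighbour in this order overlapped the next in its libraries.

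Against CTRL, *Trp53* in β-catenin KO differed by -0.33 (SE 0.14, limma adjusted p = 0.672) in low CHIR, by -0.36 (SE 0.14, adjusted p = 0.104) in high CHIR and by -0.34 (SE 0.10, adjusted p = 0.0402) in the mean of both. The last is under the fold limit, so it was not called. From replicate 1 alone the mean difference was -0.48 (adjusted p = 0.0329) and from replicates 2 and 3 alone -0.27 (adjusted p = 0.175). Without CTRL high CHIR replicate 2 the difference in high CHIR was -0.41 (adjusted p = 0.0989). The direction was the same on every date, with *Trp53* lower in β-catenin KO than in the CTRL library of the same date and CHIR in 6 of 6 pairs, by 0.18 to 0.49, which 5.36% of all genes also showed. It was also lower in 4 of 4 pairs of α-catenin KO (5.37% of genes) but by at most 0.20, and in 2 of 4 pairs of QCKO (11.7% of genes were lower in all 4). QCKO minus CTRL was 0.09 (95% interval -0.14 to 0.32) and α-catenin KO minus CTRL -0.09 (-0.32 to 0.14) in the mean of both CHIR conditions. QCKO exceeded β-catenin KO by 0.43 (SE 0.11, adjusted p = 0.0435), again under the fold limit, and 2.74% of genes were called in that comparison. Against replicate 1 of β-catenin KO alone, the 1 library of a group being assumed to vary like the other groups, this difference was 0.57 (adjusted p = 0.0236) and was called, as were 11.2% of genes, but QCKO has no library of that date. It was also called without β-catenin KO low CHIR replicate 3 (0.51, adjusted p = 0.0129), and against replicates 2 and 3 alone it was 0.36 (adjusted p = 0.148).

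*Mdm2*, the inhibitor of p53, stayed between 474 and 1139.9 normalized counts. In low CHIR the CTRL libraries had 806, 889 and 652 normalized counts, and in high CHIR 832, 474 and 557. QCKO had 1139.9 and 1097 in low and 837 and 878 in high CHIR. All 4 QCKO libraries lay above the CTRL libraries of their condition, in high CHIR by a margin of only a few counts over CTRL replicate 1. β-catenin KO had 938, 1005 and 607 in low and 790.2, 1017 and 811 in high CHIR. α-catenin KO had 742 and 984 in low and 885 and 912 in high CHIR. β-catenin KO overlapped CTRL in both conditions, and α-catenin KO overlapped it in low CHIR and lay above it in high CHIR, where 9.16% of genes had every α-catenin KO library above CTRL. The highest group mean was QCKO low CHIR (1119 ± 30.2, SD, n = 2) and its libraries did not overlap those of the next, α-catenin KO high (898 ± 18.9, n = 2). Then came β-catenin KO high (873 ± 126, n = 3), α-catenin KO low (863 ± 171, n = 2), QCKO high (857 ± 29.3, n = 2), β-catenin KO low (849.9 ± 213, n = 3), CTRL low (782 ± 120, n = 3) and CTRL high (621 ± 187, n = 3), and each of these neighbours overlapped.

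QCKO exceeded CTRL in *Mdm2* by 0.53 (SE 0.25) in low and 0.51 (SE 0.25) in high CHIR, and by 0.52 (SE 0.18, 95% interval 0.14 to 0.89, limma adjusted p = 0.464) in the mean of both. The same-date ratios of QCKO to CTRL were 1.28, 1.68, 1.76 and 1.58, all above 1. In β-catenin KO the difference in the mean of both was 0.31 (SE 0.16, adjusted p = 0.237), and 4 of 6 same-date pairs were higher. In α-catenin KO it was 0.36 (SE 0.18, adjusted p = 0.907), with 3 of 4 pairs higher. *Mdm2* was thus not called in any comparison with CTRL. Without CTRL high CHIR replicate 1, its difference in β-catenin KO in high CHIR rose from 0.52 (adjusted p = 0.14) to 0.75 and was called (adjusted p = 0.0271). Without CTRL high CHIR replicate 2, the lowest of the 3, it was 0.35 (adjusted p = 0.41), and the difference of QCKO in high CHIR was 0.33 in place of 0.51. In the mean of both conditions β-catenin KO exceeded CTRL by 0.33 (adjusted p = 0.343) from replicate 1 and by 0.30 (adjusted p = 0.428) from replicates 2 and 3.

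*Cdkn1a* had the widest range of the 4, from 826 to 10747 normalized counts. In CTRL it was at 826, 2532 and 1681 in low and at 1594, 2877 and 1458 in high CHIR, with replicate 2 the highest in both. In QCKO it was at 3121 and 4033 in low and at 4359 and 4558 in high CHIR. Every QCKO library lay above every CTRL library of either condition. In β-catenin KO it was at 1965, 6502 and 4509.7 in low and at 2373, 10747 and 9876 in high CHIR. Here replicate 1 lay within the CTRL range in both conditions, and was 2.38 (low) and 1.49 (high) times the CTRL library of its date. Replicates 2 and 3 were 2.57 to 6.77 times the CTRL library of their date. In α-catenin KO it was at 1136 and 2029 in low and at 2969 and 2643 in high CHIR, overlapping CTRL in both. By group mean the order was β-catenin KO high CHIR (7665 ± 4604, n = 3), QCKO high (4458 ± 141, n = 2), β-catenin KO low (4325 ± 2274, n = 3), QCKO low (3577 ± 645, n = 2), α-catenin KO high (2806 ± 230.4, n = 2), CTRL high (1976 ± 783, n = 3), CTRL low (1679.9 ± 853, n = 3) and α-catenin KO low (1582 ± 632, n = 2; ± SD). QCKO low and α-catenin KO high did not overlap, and every other pair of neighbours did.

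Relative to CTRL, *Cdkn1a* in β-catenin KO was higher by 1.74 (SE 0.54, limma adjusted p = 0.0499) in high CHIR and by 1.54 (SE 0.38, adjusted p = 0.0237) in the mean of both conditions, and both were called. In low CHIR the difference of 1.34 (SE 0.54, adjusted p = 0.652) was not. With the date as a block the adjusted p values were 0.00274 in high CHIR and 0.000649 in the mean. The call in high CHIR sat at the threshold and was lost when any of 15 of the 20 libraries was left out, libraries of groups outside the comparison included, with differences of 1.36 to 2.45 over all 20. Without CTRL high CHIR replicate 2 it was 2.05 (adjusted p = 0.0584). In the mean the call was lost without β-catenin KO high replicate 2 (1.35, adjusted p = 0.0559), β-catenin KO high replicate 3 (1.38, 0.0546), β-catenin KO low replicate 2 (1.36, 0.0501), CTRL high replicate 3 (1.45, 0.0551) or CTRL low replicate 1 (1.32, 0.0518). Replicates 2 and 3 of β-catenin KO alone exceeded CTRL by 1.83 (adjusted p = 0.0327) in low, 2.45 (0.00156) in high and 2.14 (0.000273) in the mean, all called, as were 1.22%, 6.04% and 4.42% of genes in that direction. Replicate 1 alone differed from CTRL by 0.37 (0.847), 0.33 (0.762) and 0.35 (0.586), and 0.301%, 4.16% and 7.06% of genes were called higher from it. Beside the CTRL library of its own date, replicate 1 was higher by 1.25 in low and 0.57 in high CHIR. Replicates 2 and 3 were higher by 1.36 and 1.42 in low and by 1.90 and 2.76 in high CHIR. The libraries in which *Axin2* and *Lef1* were high in low CHIR were therefore the ones with the highest level of *Cdkn1a*. In low CHIR, however, its same-date differences from CTRL were close to each other on every date. The part of *Axin2* and *Lef1* in the level of *Cdkn1a* was not tested.

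**Figure D2:**
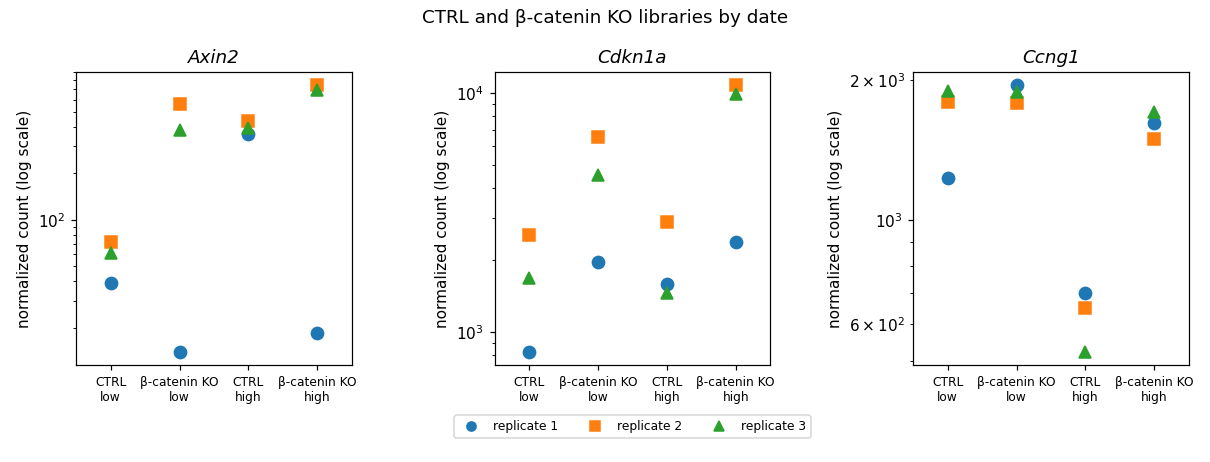
Normalized counts (log axes) of *Axin2*, *Cdkn1a* and *Ccng1* in the CTRL and β-catenin KO libraries of low and high CHIR; each point is a library and its shape and colour the replicate. In β-catenin KO, *Axin2* and *Cdkn1a* are lowest in replicate 1 in both conditions (*Cdkn1a* at 1965 and 2373), while the 3 values of *Ccng1* lie together in each condition.

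QCKO exceeded CTRL in *Cdkn1a* by 1.22 (SE 0.61) in low and 1.24 (SE 0.61) in high CHIR, and by 1.23 (SE 0.43, 95% interval 0.32 to 2.14, limma adjusted p = 0.464) in the mean of both. QCKO lacks replicate 1, the date of the lowest CTRL value in low CHIR, and with the date as a block the mean difference was 0.86 (block adjusted p = 0.252). Without CTRL high CHIR replicate 2, the highest of the 3, the difference in high CHIR was 1.55. The same-date ratios were 1.23 and 2.40 in low and 1.51 and 3.13 in high CHIR, the larger ones from replicate 3. α-catenin KO, with 1 gene targeted, differed from CTRL by 0.00 (SE 0.61) in low, 0.57 (SE 0.61) in high and 0.28 (SE 0.43, adjusted p = 0.94; with the block 0.57, adjusted p = 0.952) in the mean, and its same-date ratios were 1.37, 1.21, 1.86 and 1.81. These differences were 0.88 in high CHIR and 0.44 in the mean without CTRL high CHIR replicate 2 (adjusted p = 1 for both). *Cdkn1a* was thus higher than the CTRL library of its date in 4 of 4 pairs of QCKO, 4 of 4 of α-catenin KO and 6 of 6 of β-catenin KO, which 15.5%, 6.49% and 7.96% of all genes also were.

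**Figure D3:**
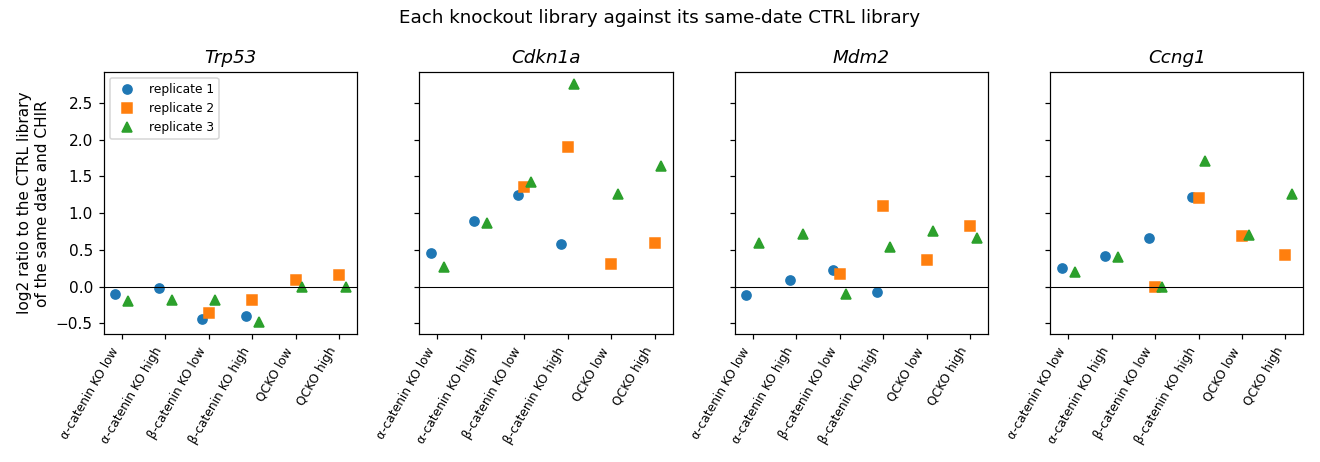
Log2 ratio of each knockout library to the CTRL library of the same date and CHIR condition, for the 4 genes; each point is a pair (4 for α-catenin KO and for QCKO, 6 for β-catenin KO), its shape and colour the replicate, and the line at 0 marks no difference. Every pair of *Cdkn1a* is above 0, and every pair of *Trp53* in α-catenin KO and β-catenin KO is below it.

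*Ccng1* followed the CHIR condition as well as the guides. In low CHIR it was at 1234, 1793 and 1894 in CTRL, 1471 and 2173 in α-catenin KO, 1952, 1788 and 1883 in β-catenin KO, and 2877 and 3091 in QCKO. In high CHIR it was at 699, 647 and 522 in CTRL, 936 and 687 in α-catenin KO, 1622, 1495 and 1708 in β-catenin KO, and 868 and 1256 in QCKO. QCKO lay above CTRL in both conditions, and β-catenin KO lay within CTRL or close above it in low CHIR and above it in high CHIR. The order of the group means was QCKO low CHIR (2984 ± 151, n = 2), β-catenin KO low (1874 ± 82.1, n = 3), α-catenin KO low (1822 ± 497, n = 2), CTRL low (1640.2 ± 355, n = 3), β-catenin KO high (1608 ± 107, n = 3), QCKO high (1062 ± 274, n = 2), α-catenin KO high (812 ± 177, n = 2) and CTRL high (623 ± 90.9, n = 3; ± SD). QCKO low stood clear of its neighbour, as did β-catenin KO high of QCKO high, and the other neighbours overlapped.

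From low to high CHIR, *Ccng1* fell by 1.38 on the log2 scale in CTRL (SE 0.20, limma adjusted p = 0.000381), by 1.16 in α-catenin KO (SE 0.25, adjusted p = 0.0147) and by 1.51 in QCKO (SE 0.25, adjusted p = 0.00177). In β-catenin KO the difference was -0.22 (SE 0.20, adjusted p = 0.999), although its high CHIR libraries lay below its low CHIR libraries, as in the other groups. The call in α-catenin KO was lost without α-catenin KO high replicate 3 (-0.93, adjusted p = 0.181) or low replicate 3 (-0.87, adjusted p = 0.188). Without CTRL high CHIR replicate 2 the fall in CTRL was 1.42 (adjusted p = 0.00134). The share of genes called from low to high CHIR was 10.7% in CTRL, 3.35% in α-catenin KO, 3.95% in QCKO and 0.018% in β-catenin KO (called lower: 6.45%, 1.82% and 2.13% in the first 3), and *Ccng1* was the 1 member of 4 called in CTRL, α-catenin KO and QCKO. Groups that did not overlap were common in this comparison. Every high CHIR library was below every low CHIR library in 13.1% of genes in CTRL, 23.5% in α-catenin KO, 4.72% in β-catenin KO and 28.5% in QCKO, for *Ccng1* in all of them and for *Mdm2* in QCKO. *Trp53* and *Cdkn1a* had every high CHIR library above in α-catenin KO and QCKO (24.6% and 27.5% of genes), by 0.11 to 0.88, and were not called.

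The change of *Ccng1* with CHIR differed between β-catenin KO and CTRL by 1.16 (SE 0.29, 95% interval 0.56 to 1.76). Its adjusted p was 0.088 without and 0.0476 with the date as a block, so it was called under the block, by DESeq2 on recovered reads (1.15, adjusted p = 0.0163) and without CTRL low replicate 1 (1.35, 0.0428), but not as first fitted, where 0.671% of genes were called. DESeq2 called 328 of all genes in this comparison, against 112 as first fitted. From replicates 2 and 3 of β-catenin KO alone the difference in *Ccng1* was 1.18 (limma adjusted p = 0.146) and from replicate 1 alone 1.12. No member was called in this comparison for α-catenin KO or QCKO, in which 0% of genes were called. The interval for *Ccng1* was -0.45 to 0.90 for α-catenin KO and -0.81 to 0.54 for QCKO. The summed counts of the nephron progenitor markers were also lower in high than in low CHIR in every group, and in high CHIR they were highest in β-catenin KO. Of the 7, 6 were called higher in β-catenin KO than in CTRL in high CHIR (*Six2* by 2.88, adjusted p = 1.71e-05), and *Pax2* was called lower. Their part in the level of *Ccng1* was not tested.

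In high CHIR, *Ccng1* in β-catenin KO exceeded CTRL by 1.38 (SE 0.20, limma adjusted p = 0.000608), and it was called with each library left out (1.25 to 1.46) and from replicates 2 and 3 alone (1.37, adjusted p = 0.00295). Replicate 1, 1 library with its spread taken from the other groups, differed by 1.39 (adjusted p = 0.022). In low CHIR the difference was 0.22 (SE 0.20, adjusted p = 0.952; 0.28 from replicate 1 and 0.19 from replicates 2 and 3). In the mean of both it was 0.80 (SE 0.14, adjusted p = 0.00384), and it was called from replicates 2 and 3 alone (0.78, adjusted p = 0.0136), while replicate 1 differed by 0.83 (adjusted p = 0.0323, with the same assumption). QCKO exceeded CTRL by 0.89 (SE 0.23, adjusted p = 1) in low and 0.76 (SE 0.23, adjusted p = 0.467) in high CHIR, and by 0.82 (SE 0.16, 95% interval 0.48 to 1.16, adjusted p = 0.396) in the mean. The last was of the same size as in β-catenin KO but was not called by limma or edgeR, and was called by DESeq2 (0.81, adjusted p = 0.0125). The same-date ratios of QCKO to CTRL were 1.60, 1.63, 1.34 and 2.40. The sums of the 4 ureteric epithelium markers with an identifier were also higher in QCKO in high CHIR, at 1699 and 1859 against 841 to 1007 in CTRL. Among them *Gata3* was at 857 and 874 against 171 to 354 (difference 1.97, limma adjusted p = 0.467). *Krt8* also lay above CTRL (adjusted p = 0.594), as did 13.3% of genes. *Hoxb7* overlapped CTRL (717 and 878 against 584 to 749, difference 0.29, adjusted p = 0.717), and none of these was called. *Gata3* and *Hoxb7* were themselves called higher with CHIR in CTRL (2.40 and 1.16). In low CHIR the sums of QCKO lay within the CTRL range. In α-catenin KO in high CHIR the sums were 1199 and 1988. Their part in the levels of the p53 genes was not tested. In α-catenin KO the difference of *Ccng1* from CTRL was 0.26 (SE 0.16, limma adjusted p = 0.907) in the mean, with 4 of 4 pairs higher by 1.15 to 1.34 times.

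**Figure D4:**
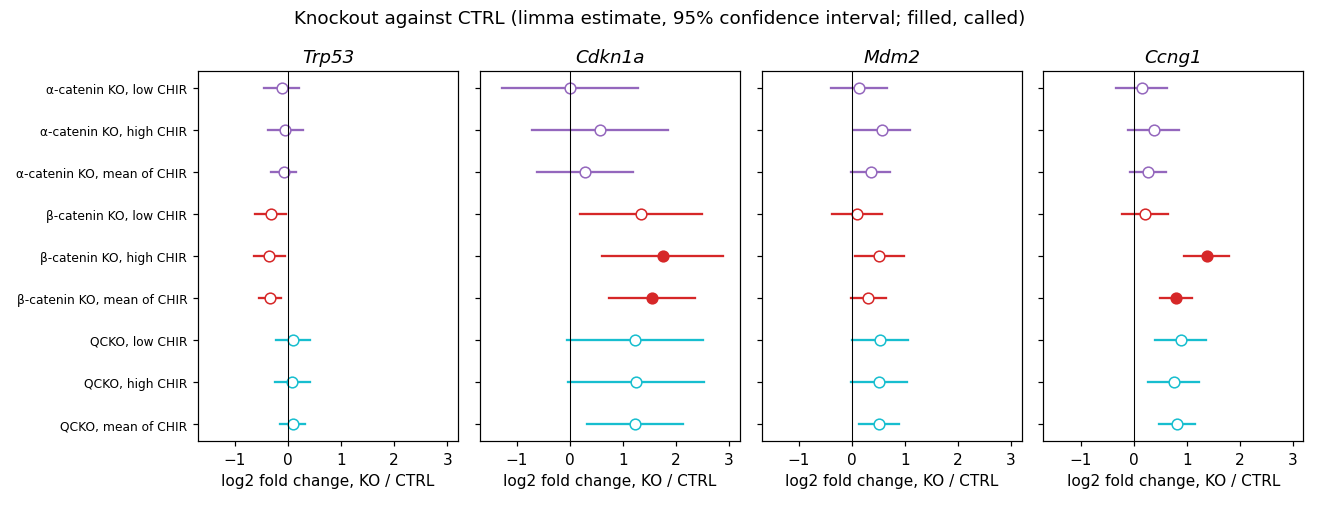
Log2 fold change from CTRL (limma estimate) of the 4 genes in QCKO and the single-gene knockouts, in low CHIR, in high CHIR and in the mean of both, with 95% confidence intervals as bars; filled points are called. The filled points are *Cdkn1a* and *Ccng1* in β-catenin KO, in high CHIR and in the mean.

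Across all genes, the shares called against CTRL were 0.00599% in low and 0% in high CHIR for α-catenin KO, 0.0659% and 10.5% for β-catenin KO, and 0.00599% and 0% for QCKO. In the mean of both conditions they were 0.00599%, 6.84% and 0.00599%. Of the 4 members 2 were called in β-catenin KO in high CHIR and 2 in the mean, all higher, where 7.67% and 5.63% of genes were called higher. In α-catenin KO and QCKO 0 of 4 were called by limma. At an unadjusted p under 0.05 there were 0, 1 and 0 members in α-catenin KO and 2, 1 and 3 in QCKO (low, high and mean), where 0.659%, 7.26% and 3.86% and 1.55%, 10.4% and 10.2% of all genes had one. edgeR called 0 in each of these, and DESeq2 called 0 except for *Ccng1* in the mean of QCKO. In β-catenin KO in low CHIR limma, edgeR and DESeq2 called 0 members and 2 had an unadjusted p under 0.05, as did 6.86% of all genes. For the QCKO libraries, 3 of 4 members lay above every CTRL library in low CHIR (9.48% of genes did) and in high CHIR (13.3%), and the same 3 did so in both, as did 2.9% of genes (2.17% for β-catenin KO and 0.611% for α-catenin KO, with no member in either). In β-catenin KO in high CHIR *Ccng1* was above (14.8% of genes) and *Trp53* below (12.3%).

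Guides against 4 genes rather than 1 were compared directly. QCKO exceeded α-catenin KO, averaged over CHIR, by 0.95 (95% interval -0.05 to 1.94) in *Cdkn1a*, 0.56 (0.19 to 0.93) in *Ccng1*, 0.16 (-0.25 to 0.57) in *Mdm2* and 0.17 (-0.08 to 0.43) in *Trp53*. The limma adjusted p was 1 for each, 1 member had an unadjusted p under 0.05, edgeR and DESeq2 called none, and 0.012% of genes were called. QCKO and α-catenin KO share only replicate 3, and with the date as a block the difference in *Cdkn1a* was 0.30 rather than 0.95, while that in *Ccng1* was 0.57 (block adjusted p = 0.996 for both). Against β-catenin KO, in which 1 gene was targeted as well, QCKO differed by -0.31 (-1.22 to 0.60) in *Cdkn1a*, 0.21 (-0.17 to 0.58) in *Mdm2* and 0.03 (-0.31 to 0.36) in *Ccng1*. On the dates that both have, replicates 2 and 3, *Cdkn1a* was lower in QCKO than in β-catenin KO in 4 of 4 pairs (3121 against 6502 and 4033 against 4509.7 in low CHIR, 4359 against 10747 and 4558 against 9876 in high CHIR), as were 14.3% of all genes. QCKO differed from these replicates by -0.91 (adjusted p = 0.178), and with the date as a block the difference was -0.68 (adjusted p = 0.196). From replicate 1 of β-catenin KO, a date that QCKO lacks, it differed by 0.88 (adjusted p = 0.179). The number of genes targeted, the genes themselves and the amount of each guide changed together between QCKO and the other knockouts and cannot be told apart.

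Other p53 targets gave a wider view. A list of 34 was set by function, of which 16 have an identifier paired with a symbol here, and all 16 were tested. Symbols come from comparison tables that hold genes selected on these samples, so the 16 are not a neutral sample of the list and their direction is not independent evidence. Of the 16691 genes tested, 3939 have a symbol. The shares of all genes printed beside counts of the 16, here and below, are therefore an unlike base. No excess of the 16 over such a share is read as a result. In QCKO 0 of 16 were called against CTRL by limma in low CHIR, in high CHIR or in the mean, while 6, 9 and 11 had an unadjusted p under 0.05 (1.55%, 10.4% and 10.2% of all genes). edgeR called 0 in each, and DESeq2, with 10 genes called in all, called *Sesn2* in the mean (0.98, adjusted p = 0.00198). The median log2 fold change of the 16 was 0.54 in low CHIR, where all 16 were above 0, 0.59 in high CHIR (13 above 0) and 0.63 in the mean (15 above 0), against medians within 0.034 of 0 over all genes tested.

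*Sesn2*, which encodes sestrin 2, a stress protein that restrains mTORC1, had the smallest adjusted p of the list in QCKO. It was at 718 and 648 in QCKO against 269.5, 453.8 and 306 in CTRL in low CHIR, and at 246 and 319.8 against 171, 143 and 118 in high CHIR. QCKO lay above CTRL in both conditions, as in 2.9% of genes (9.48% in low and 13.3% in high CHIR). The difference was 1.03 (SE 0.25) in low and 0.97 (SE 0.25) in high CHIR and 1.00 (SE 0.18, limma adjusted p = 0.264) in the mean, and it was called in the mean without CTRL low CHIR replicate 2 (1.11, adjusted p = 0.0497). *Eda2r*, a death receptor of the TNF receptor family, differed by 0.96 (SE 0.26, adjusted p = 0.464) in the mean. *Ak1*, an adenylate kinase, was at 2000 and 2688 in QCKO in low and 1224 and 1480.3 in high CHIR, with a difference of 0.90 (SE 0.22, adjusted p = 0.464). In high CHIR *Ak1* and *Dcxr*, a carbonyl reductase, were called without CTRL high replicate 1 (1.40 and 1.98, adjusted p = 0.0481 for both), a fit in which 143 genes were called in place of 0.

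In β-catenin KO in high CHIR 7 of 16 were called higher and 0 lower (7.67% and 2.86% of all genes, the unlike base named above). They were *Ak1* (1.84, SE 0.27, limma adjusted p = 0.000671), *Dcxr* (1.80, SE 0.38, 0.00822), *Plk2*, a polo-like kinase (1.70, SE 0.32, 0.00431), *Eda2r* (1.25, SE 0.32, 0.0233), *Sesn2* (1.00, SE 0.22, 0.0108), *Fdxr*, a mitochondrial ferredoxin reductase (0.93, SE 0.24, 0.023) and *Ercc5*, a nuclease of nucleotide excision repair (0.84, SE 0.20, 0.0143). With the date as a block 11 were called higher and 1 lower, the latter being *Pmaip1*, which encodes the cell death protein NOXA (-1.50, block adjusted p = 0.0349 against 0.146 without). DESeq2 called 10 of the 16, with 2516 of all genes called in place of 1757 by limma. The number of all genes called under the block is not given, and over the alternative settings it reached 2881. *Ak1* was at 860, 490.3 and 527 in CTRL and at 2201, 2643 and 1755 in β-catenin KO, so that all 3 β-catenin KO libraries lay above CTRL (14.8% of genes). The median of the 16 was 0.89. From replicates 2 and 3 alone 7 were called higher (6.04% of genes), and from replicate 1 alone 3 were called higher (4.16%) and *Tigar* lower (2.93%). In low CHIR 0 of 16 were called by limma, edgeR or DESeq2, and 0 had an unadjusted p under 0.05. In the mean of both, *Plk2* (1.01, adjusted p = 0.0152), *Trp53inp1*, a p53-inducible nuclear protein (0.70, 0.0412), *Dcxr* (1.00, 0.0337) and *Ak1* (1.17, 0.0023) were called higher, 4 of 16 (5.63% of genes), and the count fell to 2 without β-catenin KO high replicate 2, high replicate 3 or low replicate 1, or without CTRL low replicate 1 or low replicate 3.

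Many of these genes also changed with CHIR. Of the 16, 8 were called lower and 3 higher from low to high CHIR in CTRL (6.45% and 4.29% of genes). With the date as a block 15 were called, and by DESeq2 also 15. DESeq2 called 2563 of all genes here, against 1793 by limma. Over the alternative settings the genes called reached 2910, and the number under the block itself is not given. The largest called falls were those of *Dcxr* (-1.90, limma adjusted p = 0.00451), *Eda2r* (-1.68, 0.00338), *Plk2* (-1.46, 0.00851), *Ak1* (-1.29, 0.0065), *Sesn2* (-1.22, 0.0022) and *Fdxr* (-1.07, 0.00935). The largest called rises were those of *Pmaip1* (3.07, 0.00652) and of *Tigar*, a regulator of glycolysis (1.15, 0.0106). In β-catenin KO 0 of 16 were called by limma, edgeR or DESeq2 and 0 had an unadjusted p under 0.05. In α-catenin KO only *Eda2r* was called (-1.53, adjusted p = 0.0444), where 3.35% of genes were called and 1.82% lower, and 3 were under the block. In QCKO *Eda2r* (-1.62, 0.0281), *Sesn2* (-1.28, 0.0118) and *Rchy1*, a ubiquitin ligase that targets p53 (-0.86, 0.0146), were called lower, as were 2.13% of genes (3.95% in either direction). Under the block 6 of 16 were called, among them *Pmaip1* as higher (2.65, block adjusted p = 0.00748). The shares of genes printed for both knockouts belong to the fit without the block. Alternative settings called up to 1855 genes for QCKO, where the first fit called 660. For α-catenin KO they called up to 1150, where it called 559. How many genes the block itself called is not given. With 1 library left out, the number of the 16 called in α-catenin KO was 0 or 2 for 12 of the 20. In QCKO it fell to 0 without QCKO high replicate 2, low replicate 2 or low replicate 3 and rose to 5 without CTRL high replicate 2. The median of the 16 was -0.90 in CTRL, -0.35 in α-catenin KO, -0.79 in QCKO and -0.02 in β-catenin KO. The difference in this response between β-catenin KO and CTRL had a median of 0.92, and 0 of 16 were called by limma (9 at an unadjusted p under 0.05, as were 10.4% of genes) or edgeR, 1 by DESeq2 and 2 under the block, *Fdxr* (1.23, block adjusted p = 0.0268) and *Pmaip1* (-2.60, block adjusted p = 0.0493). DESeq2 called 328 of all genes in this comparison, against 112 by limma.

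**Figure D5:**
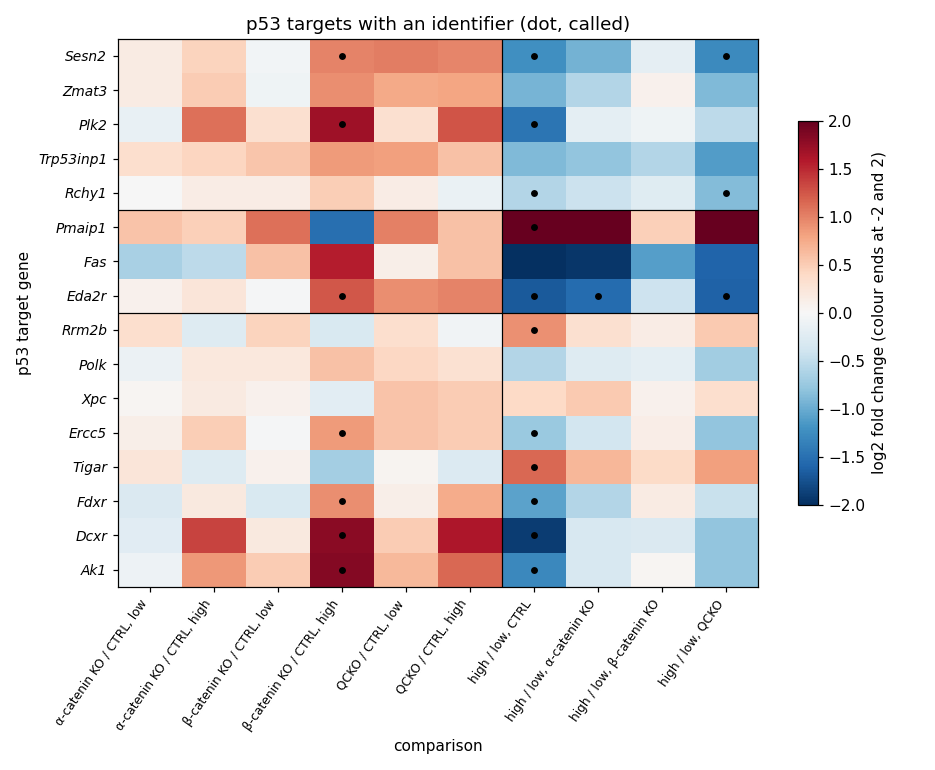
Log2 fold change, as colour that ends at -2 and 2, of the 16 p53 target genes that have an identifier (rows, divided by lines into arrest and feedback, cell death, and repair and metabolism) in each knockout against CTRL (left) and in high against low CHIR (right); a dot marks a called gene. Left of the line the 7 dots are all in β-catenin KO in high CHIR, and right of it CTRL has 11.

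In α-catenin KO 0 of 16 were called against CTRL in any of the 3 comparisons by limma, edgeR or DESeq2, and 0, 4 and 0 had an unadjusted p under 0.05 (0.659%, 7.26% and 3.86% of genes). The smallest adjusted p in high CHIR was 0.641, shared by *Dcxr* (1.35), *Plk2* (1.11), *Ak1* (0.87) and *Ercc5* (0.49). The median was 0.06 in low and 0.33 in high CHIR. Every library lay above CTRL for 2 of 16 in low CHIR (6.21% of genes) and 8 in high CHIR (9.16%) in α-catenin KO. The same held for 2 (5.72%) and 10 (14.8%) in β-catenin KO and for 8 (9.48%) and 10 (13.3%) in QCKO. Below CTRL in every library were *Fas* in α-catenin KO in low CHIR (6.91% of genes), *Pmaip1* in β-catenin KO in high CHIR (12.3%) and *Tigar* in QCKO in high CHIR (13.2%). In same-date pairs 10 of 16 were higher in every pair of QCKO, 8 in α-catenin KO and 2 in β-catenin KO, against 15.5%, 6.49% and 7.96% of all genes. QCKO exceeded α-catenin KO with a median of 0.38 and β-catenin KO with a median of 0.09, and 0 of 16 were called in either by limma or edgeR, while 5 and 3 had an unadjusted p under 0.05 (1.8% and 18.3% of genes) and DESeq2 called 0 and 1. *Xpc*, a damage sensor of nucleotide excision repair, was 0.60 higher in QCKO than in β-catenin KO (adjusted p = 0.0591). With the date as a block it was 0.49 (adjusted p = 0.0414), under the fold limit and so not called. It was called by DESeq2 (0.58, 0.0183) and without β-catenin KO high replicate 2 (0.71, 0.0191) or CTRL high replicate 2 (0.60, 0.0431). The genes called in these fits were 1132, 516 and 741, in that order, against 458 as first fitted.

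Of the cell cycle genes that are repressed when p21 acts through the DREAM complex, 1 of 12 had an identifier, *Birc5*, which encodes survivin. It was at 2787 and 2226 in QCKO against 3386, 2589 and 3177 in CTRL in low CHIR, and at 1896 and 1779 against 2579.9, 3770.4 and 2716 in high CHIR. The QCKO libraries lay below CTRL in high CHIR, as in 13.2% of genes, and overlapped it in low CHIR, and the difference in the mean of both was -0.49 (SE 0.20, limma adjusted p = 0.464). It was not called in any of the 18 comparisons. None of 10 regulators of p53 (such as *Mdm4*, *Atm* and *Chek2*) had an identifier. Transfected RNA can switch on interferon genes, of which *Irf7*, a transcription factor of the interferon response, was examined (1 of 11 listed). In low CHIR it was at 24.3 to 41.2 normalized counts in CTRL, 25.2 and 42.4 in QCKO, 35.3 and 54.3 in α-catenin KO and 40.04 to 101 in β-catenin KO. In high CHIR it was at 72.6 to 106 in CTRL, 104 and 157 in QCKO, 130.1 and 165 in α-catenin KO and 11.3 to 43.9 in β-catenin KO, where all 3 libraries lay below CTRL (12.3% of genes). The last difference was called (-1.60, limma adjusted p = 0.0345), and the call was lost without β-catenin KO high replicate 3 or without CTRL high replicate 2 or 3. *Irf7* was not called in QCKO or α-catenin KO against CTRL, and the part of an interferon response in the p53 targets was not tested.

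The levels of the 4 members over the 20 libraries were loosely related. Pearson's r of log2 values was 0.549 for *Mdm2* with *Ccng1*, 0.291 for *Cdkn1a* with *Mdm2*, 0.232 for *Cdkn1a* with *Ccng1*, -0.115 for *Trp53* with *Cdkn1a*, -0.223 for *Trp53* with *Mdm2* and -0.372 for *Trp53* with *Ccng1*. The libraries share dates, guides and CHIR conditions, so these describe this set only. Among genes with a symbol and a mean of at least 100 (2868 or 2869 candidates), those most like *Ccng1* were *Inka2* (0.973), *Eda2r* (0.961) and *Matn1* (0.944), those most like *Mdm2* were *Nelfb* (0.902), *Adck2* (0.892) and *Zfp574* (0.888), those most like *Trp53* were *Apex1* (0.843), *Nmral1* (0.819) and *St8sia6* (0.818), and those most like *Cdkn1a* were *Mroh1* (0.795), *Slc66a1* (0.792) and *Rnf41* (0.785).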

How the data were processed

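The deposited table holds signal values, that is reads per gene after the authors scaled each library by its own size factor. Dividing each library by its step, the smallest value above 0 refined by least squares, returned whole reads (within 0.01) in all 20 libraries. In replicate 2 of β-catenin KO (low CHIR) and replicate 3 of α-catenin KO (high CHIR) the factor is so near 1 that low values alone do not show the step. The submitters' processing notes name STAR, featureCounts, Salmon and DESeq2 and the builds GRCm38, mm10 and GRCh38. Whether counting used strand is not given in the sources used here, and reads of an antisense neighbour could then not be told apart. The 7 comparison tables hold the authors' fold changes and p-values. Only their identifier and symbol pairs were used (4316 genes, 3939 of them tested).

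Log2(normalized count + 1) was tested with limma 3.58.1 in R 4.3.3 (mean-variance trend, 1 mean per group, all 20 libraries in 1 fit), across the 16691 genes with a mean of at least 10. For weakly expressed genes the pseudocount makes the fold change smaller. The limits for a call were 0.05 (Benjamini-Hochberg adjusted p) and 0.5 (log2 fold change in either direction), in 18 comparisons. edgeR 4.0.16 and DESeq2 1.42.0 were run on recovered reads, and the calling was tested on simulated data. Other alternatives were the date as a block, TMM, quantile and total-count scaling, other filters, pseudocounts (0.25 and 5) and fold limits, the compared groups alone and leaving out each library. Total-count scaling and the division of β-catenin KO by date were chosen after seeing the data, as was the block for interferon genes. The labels give a shared date, and deviations from group means correlated more between libraries of different groups and the same date (median r 0.199, 0.0199 to 0.721, 58 pairs) than of different dates (median -0.112, 116 pairs), so the date pairs the libraries. Nothing in the labels says that replicates came from separate litters, so p-values measure the spread between these libraries.

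The members, lists and tests were chosen with earlier results of these data known. Named genes were the 4 members, the listed p53 targets called in a knockout comparison, the 8 largest called changes with CHIR or, where none was called, among the 3 of smallest adjusted p, and the 3 genes most correlated with each member. *Tigar* as called from replicate 1 of β-catenin KO, *Birc5*, the interferon and marker genes, *Axin2*, *Lef1* and the targeted genes were named after their values were seen or as checks. Of the 11 interferon genes counted above 10 have no identifier here, and 1 further gene of that list is not reported. No list was tested as a set, since most of their genes have no identifier here.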

Additional observations from a re-analysis of the deposited data

How the results depend on the processing

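Over the 18 comparisons, 2247 of the recomputed log2 fold changes of the 4 genes kept their direction and their side of the threshold, 66 changed sign, 30 lost the call and 9 gained it. For each change below the cause was not tested, except that fits with fewer libraries have less information. The call of *Ccng1* in β-catenin KO in high CHIR held in all of them. With the date as a replicate block, no call of a member was lost and *Ccng1* in the CHIR response of β-catenin KO was gained (members called 1). The p53 targets called became 12 in β-catenin KO in high CHIR, 3 and 6 with CHIR in α-catenin KO and QCKO, and 2 in the CHIR response of β-catenin KO. The interferon genes called became 1 with CHIR in QCKO. Members called were 1 for β-catenin KO in high CHIR with no filter, with a pseudocount of 0.25, with only the groups compared and from replicate 1. They were 1 in the mean with a fold limit of 1, with only the groups compared and from replicate 1, and 1 in low CHIR from replicates 2 and 3. They were also 1 for QCKO in the mean with DESeq2, 1 for QCKO minus β-catenin KO from replicate 1, 0 with CHIR in α-catenin KO with only the groups compared, and 1 for the CHIR response of β-catenin KO with DESeq2 and with total scaling. With total scaling the targets called were 11 in β-catenin KO in high CHIR and 2 with CHIR in α-catenin KO. From replicate 1 they were 4 in β-catenin KO in high CHIR and 1 in QCKO minus β-catenin KO, and from replicates 2 and 3 they were 2 in the mean of β-catenin KO. None of the sign changes concerned a called difference. Under quantile scaling *Cdkn1a* in α-catenin KO was 0.0509 in low CHIR, *Trp53* in α-catenin KO was 0.104 in high CHIR and 0.0453 in the mean, *Trp53* with CHIR was -0.0958 in CTRL and -0.0014 in QCKO, and its CHIR response was 0.129 in β-catenin KO and 0.0944 in QCKO. Under total scaling these were 0.0758, 0.0818, 0.0194, -0.0483 and, for the CHIR responses, 0.105 and 0.0893 (*Trp53* with CHIR in QCKO did not change sign), while *Mdm2* with CHIR in α-catenin KO was -0.0534 and its response in QCKO 0.0835. Under TMM, *Cdkn1a* in α-catenin KO in low CHIR was 0.000555, the response of *Trp53* was 0.0154 in β-catenin KO and 0.0174 in QCKO, and that of *Mdm2* in QCKO was 0.0118. The block gave 0.279 for *Cdkn1a* in α-catenin KO in low CHIR. From replicate 1 of β-catenin KO, QCKO minus β-catenin KO was 0.881 in *Cdkn1a* and -0.0117 in *Ccng1*, *Mdm2* with CHIR was -0.247, and the CHIR response was 0.156 for *Trp53* and -0.0362 for *Cdkn1a*. With each library left out in turn, in α-catenin KO in low CHIR *Cdkn1a* ranged from -0.442 to 0.416, *Mdm2* from -0.0654 to 0.342 and *Ccng1* from -0.132 to 0.431, and in high CHIR *Trp53* from -0.1001 to 0.00395. *Mdm2* in β-catenin KO in low CHIR ranged from -0.0403 to 0.323, and *Ccng1* in QCKO minus β-catenin KO from -0.108 to 0.158. With CHIR, *Cdkn1a* in CTRL ranged from -0.131 to 0.676, *Mdm2* in α-catenin KO from -0.131 to 0.276, and in β-catenin KO *Trp53* from -0.017 to 0.254 and *Mdm2* from -0.163 to 0.2002. The CHIR response of α-catenin KO ranged from -0.0142 to 0.159 in *Trp53* and from -0.0552 to 0.508 in *Ccng1*, and that of β-catenin KO from -0.147 to 0.124 in *Trp53* and from -0.0867 to 1.11 in *Cdkn1a*. That of QCKO ranged from -0.0972 to 0.0407 in *Trp53*, -0.347 to 0.4601 in *Cdkn1a*, -0.195 to 0.21 in *Mdm2* and -0.397 to 0.135 in *Ccng1*. Members called were 1 to 2 in β-catenin KO in high CHIR and in the mean, and 0 to 1 in QCKO minus β-catenin KO, with CHIR in α-catenin KO and in the CHIR response of β-catenin KO. Targets called were 0 to 2 in QCKO in high CHIR, 2 to 5 in the mean of β-catenin KO, 0 to 1 in the mean of QCKO, in QCKO minus β-catenin KO and in the CHIR response of β-catenin KO, and, with CHIR, 0 to 2 in α-catenin KO and 0 to 5 in QCKO. Interferon genes called were 0 to 1 in β-catenin KO in high CHIR and with CHIR in CTRL, α-catenin KO and QCKO. Genes called over all alternatives other than left-out libraries were 240 to 2881 in β-catenin KO in high CHIR (1757 as reported), 458 to 2177 in its mean (1142), 0 to 217 in its low CHIR (11), 0 to 10 in the mean of QCKO (1), 287 to 1855 in QCKO minus β-catenin KO (458), 761 to 2910 with CHIR in CTRL (1793), 419 to 1150 in α-catenin KO (559), 469 to 1855 in QCKO (660) and 0 to 51 in β-catenin KO (3), and 36 to 400 in the CHIR response of β-catenin KO (112). With 1 library left out these were, in the same order, 863 to 3060, 675 to 1660, 0 to 53, 0 to 2, 169 to 741, 1019 to 3107, 166 to 692, 245 to 830, 1 to 5 and 46 to 207, and 0 to 143 for QCKO in high CHIR (0 as reported). What limits the calls in QCKO and α-catenin KO against CTRL was not tested.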

Other observations

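The lists of other cell types that could be in the sort give these values. For ureteric epithelium 4 of 6 markers had an identifier, with summed normalized counts of 279 to 851 in low CHIR over the 4 guide groups. In high CHIR the sums were 841 to 1007 in CTRL, 537 to 1027 in β-catenin KO, 1199 to 1988 in α-catenin KO and 1699 to 1859 in QCKO. *Meis1*, 1 of 6 stroma markers, was at 1671 to 3220.1 in low and 537 to 1094 in high CHIR. *Tek*, 1 of 4 endothelium markers, was at 0 to 7.64 in low and 4.62 to 383 in high CHIR. No leukocyte marker had an identifier. Of the ureteric list, 3 genes were tested. In high CHIR *Krt8*, a keratin of simple epithelia, was at 22.7 to 79.9 in CTRL, 80.9 to 109 in β-catenin KO, 102 and 119.5 in QCKO and 229 and 466 in α-catenin KO. *Hoxb7* was at 584 to 749 in CTRL, 289.98 to 519.8 in β-catenin KO, 717 and 878 in QCKO and 621 and 815 in α-catenin KO. *Gata3* was at 171 to 354 in CTRL, 96.3 to 383 in β-catenin KO, 857 and 874 in QCKO and 340.1 and 702 in α-catenin KO.

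Of the p53 targets linked to cell death, *Pmaip1* and *Fas* had these values. *Pmaip1* was at 68.2, 281.5 and 121 in β-catenin KO in high CHIR, below the 406, 357 and 373 of CTRL, while it was at 641 and 507 in QCKO and 502 and 555 in α-catenin KO. *Fas* in replicate 1 of β-catenin KO alone differed from CTRL by 2.51 (limma adjusted p = 0.0221) in the mean of both CHIR conditions, against 0.36 (adjusted p = 0.745) from replicates 2 and 3, and the difference between the dates was not tested.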
